A study of Mus musculus with 5 samples.

Results

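The CC chemokine ligands examined here are the 10 genes Ccl2, Ccl3, Ccl4, Ccl5, Ccl6, Ccl7, Ccl8, Ccl9, Ccl12 and Ccl22, chosen by symbol among the 19726 gene symbols that each library lists. They were measured in 2 tumor libraries (replicates 2 and 3) and 3 spleen libraries (replicates 1, 2 and 3), all labelled as CD4+ T cells. The mice were wild type, of strain C57/Bl6j and 7 weeks old, and the tumors were MC38, a mouse colon carcinoma line that grows in this strain. The labels name no treatment, no tumor site and no method of cell isolation. Total RNA from 300000 cells per sample was depleted of ribosomal RNA and sequenced. Levels are TPM, a relative abundance per library corrected for transcript length. The labels do not say whether each replicate is its own mouse, and p-values therefore reflect only how far these 5 libraries spread, possibly from technical sources.

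CC chemokines are small secreted proteins with a pair of adjacent cysteines that guide leukocytes by binding G protein-coupled receptors on them. Macrophages, monocytes and activated lymphocytes release most of the inflammatory ligands of this family when NF-kappaB, interferon or stress signals act on them. In tumors they are known for drawing monocytes through Ccr2, and helper and regulatory T cells through Ccr4 and Ccr8.

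The labelled cell type was checked against marker genes before the ligands were compared. The 12 T cell identity genes, Cd4 and Cd3e among them, had a summed level of 314 and 247 TPM in the tumor libraries (replicates 2 and 3), against 949.9, 1247 and 1041 TPM in spleen replicates 1, 2 and 3. The 16 macrophage and monocyte genes summed to 7735 and 8173 TPM in tumor libraries, against 25.5, 28.6 and 28.02 TPM in spleen libraries, and all 16 were higher in both tumor libraries than in any spleen library. None of the 16 was at 0 in any library. Cd14, the lipopolysaccharide co-receptor of monocytes, stood at 398 and 438 TPM in tumor, against 0.150, 0.0972 and 0.116 TPM in spleen, beside Lyz2, a lysozyme gene, at mean levels of 1233 and 2.73 TPM, and Fcgr1, an Fc receptor gene, at 466 and 0.344 TPM. Lat, Lck and Cd3e, which serve T cell receptor signalling, fell most among the T cell genes, with log2 differences of -3.02, -2.64 and -2.57. Sums of the other lists ranged, in tumor and spleen libraries in that order, from 79.5 to 80.8 and 16.4 to 22.1 TPM for neutrophils, 20.1 to 21.8 and 9.34 to 14.4 TPM for dendritic cells, 11.2 to 12.97 and 11.8 to 13.9 TPM for B cells, 11.5 to 12.2 and 19.5 to 22.3 TPM for NK and CD8 T cells, 3.34 to 5.07 and 6.26 to 7.95 TPM for mast cells and basophils, 12.1 to 14.7 and 10.4 to 20.0 TPM for fibroblasts, 93.8 to 102.6 and 63.1 to 73.3 TPM for endothelium and 1.56 to 1.79 and 2.26 to 2.86 TPM for epithelium. In the neutrophil list Csf3r was at 55.5 TPM in tumor and 0.876 TPM in spleen on average. Mmp8, at 10.3 and 0.260 TPM, and S100a9, at 2.73 and 0.326 TPM, were also called higher in tumor. Csf3r, Mmp8 and S100a9 entered the test through their tumor values. Cxcr2 was called lower, at 9.19 and 15.5 TPM in the same order, and the defining Ly6g was at 0.602 TPM or less in every library. The part that other cells play in the ligand values was not tested. In bulk samples a lower T cell marker sum cannot tell apart fewer T cells, less RNA per T cell and more RNA from other cells. As a background level, the 95th percentile of 1134 olfactory receptor genes was 7.59 and 10.7 TPM in tumor libraries and 10.6 to 16.2 TPM in spleen libraries. Their median was 0.321 and 0.441 TPM in tumor libraries and 0.471 to 0.741 TPM in spleen libraries. This background is thus a strict limit, and values below it can still exceed most olfactory receptor genes.

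All 10 ligands stood higher in both tumor libraries than in any spleen library, as did 46.6% of all tested genes, while 23.8% stood lower in both tumor libraries than in any spleen library. Differences are tumor minus spleen in log2(TPM + 1), a scale that makes the change of low genes look smaller. They were tested with limma across the 12979 genes averaging 1 TPM or more, with Benjamini-Hochberg adjustment and calls at an adjusted p below 0.05. Of the 10 ligands 9 were tested, and all 9 rose, where 40.9% of all tested genes were called higher and 18.1% lower. Of these 9, 6 had a spleen mean below 1 TPM and entered the test through their tumor values, so they had to differ, and Ccl22 was not tested. The median change was 7.04 among the 9 ligands and 0.23 among all tested genes. Rises made up 69.3% of all calls as deposited, 28.4% after scaling to equal totals, 38.5% on the upper quartile and 99.0% on T cell identity genes. The median of all tested genes was -0.56, -0.33 and 1.94 under these 3 scalings. The 9 ligands were called higher under each of them.

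**Figure D1:**
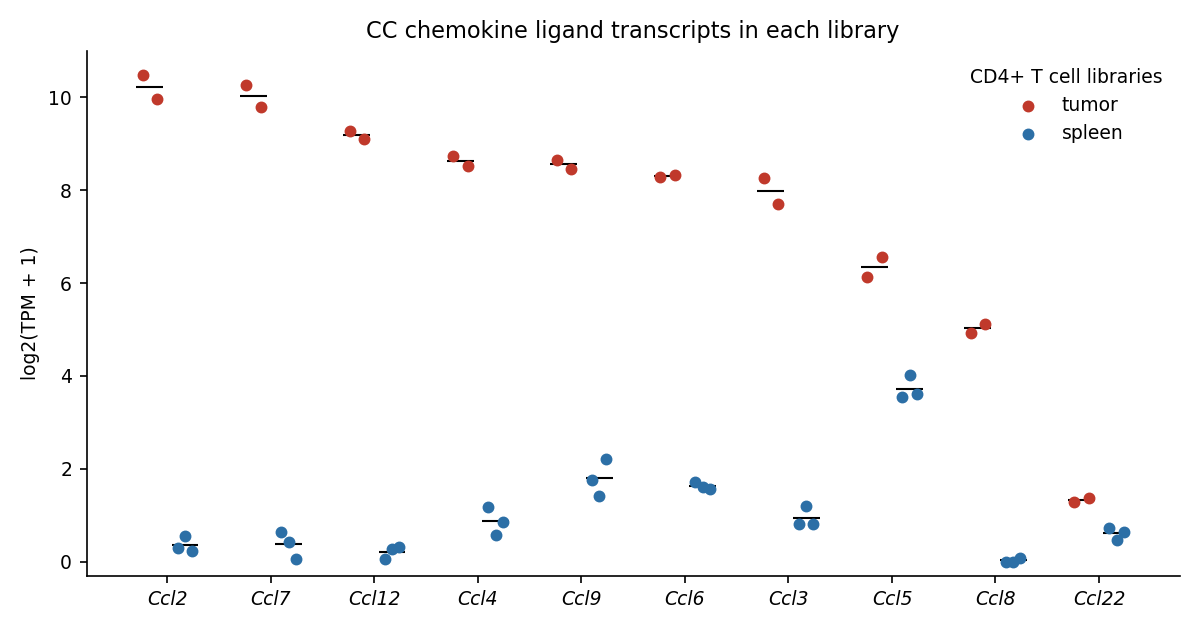
Levels of the 10 CC ligands as log2(TPM + 1) in each library, with tumor (red, n = 2) left of spleen (blue, n = 3), points for libraries and bars for group means. Tumor points lie above all spleen points for every ligand, from Ccl2 at 995 TPM or more down to Ccl22 at 1.60 TPM or less in tumor.

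The ligands of Ccr2, the receptor by which inflammatory monocytes leave the bone marrow and enter tissue, gave the highest levels and the largest differences. Ccl2, the principal monocyte attractant, stood at 1423 and 995 TPM in tumor replicates 2 and 3, against 0.222, 0.463 and 0.175 TPM in spleen replicates 1, 2 and 3. The neighbouring Ccl7, which also binds Ccr1 and Ccr3, was at 1234 and 882 TPM in tumor and at 0.560, 0.350 and 0.0357 TPM in spleen. For Ccl12, a further mouse Ccr2 ligand, the values were 619.5 and 549 TPM in tumor and 0.0489, 0.202 and 0.238 TPM in spleen. The groups were far apart for all 3 genes, with spleen values below the olfactory receptor 95th percentile and replicate 2 the higher tumor library each time. The log2 difference was 9.86 ± 0.21 for Ccl2 (SE; limma adjusted p = 2.58e-37). It was 9.65 ± 0.22 for Ccl7 (SE; limma adjusted p = 1.04e-36) and 8.98 ± 0.21 for Ccl12 (SE; limma adjusted p = 2.02e-36). The macrophage and monocyte marker sum was 7735 and 8173 TPM in the same tumor libraries.

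Ccl8 lies beside these genes and encodes a related protein, but in the mouse its main receptor is Ccr8, found on helper and regulatory T cells. It had 29.3 and 33.9 TPM in tumor replicates 2 and 3, and was listed at 0 in spleen replicates 1 and 2 and at 0.0636 TPM in spleen replicate 3. Its tumor level was above the olfactory background in both libraries and below that of Ccl2, Ccl7 and Ccl12. The log2 difference was 4.99 ± 0.21 (SE; limma adjusted p = 3.83e-26).

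Ccl3, Ccl4 and Ccl5 attract effector lymphocytes and macrophages, and both macrophages and activated T cells can make them. Ccl4 reached 426 and 364 TPM in tumor replicates 2 and 3, against 1.27, 0.488 and 0.817 TPM in spleen replicates 1, 2 and 3. Ccl3, which also binds Ccr1, was at 305 and 207 TPM in tumor and 0.746, 1.29 and 0.754 TPM in spleen. Their spleen values lay within background in every library, and their log2 differences were 7.75 ± 0.21 for Ccl4 and 7.04 ± 0.22 for Ccl3 (SE; limma adjusted p = 1.66e-33 and 1e-31).

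Ccl5, known as the chemokine of effector and memory T cells and of NK cells, was the member with the highest level in spleen. It stood at 69.0 and 92.9 TPM in tumor replicates 2 and 3, against 10.6, 15.2 and 11.2 TPM in spleen replicates 1, 2 and 3. Spleen replicate 2 was above the olfactory 95th percentile of its own library, and spleen replicates 1 and 3 were below theirs. Mean levels were 80.9 ± 16.9 TPM in tumor (SD, n = 2) and 12.3 ± 2.496 TPM in spleen (SD, n = 3), 6.57-fold higher in tumor. The log2 difference, 2.62 ± 0.21 (SE; limma adjusted p = 4.04e-15), was the smallest among the 9 tested ligands. It was 1.72 after scaling to equal totals and 4.58 on T cell identity genes.

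Ccl6 and Ccl9 are mouse ligands of Ccr1 that myeloid cells are known to make without stimulation. Ccl9 had 402 and 349.9 TPM in tumor replicates 2 and 3, against 2.41, 1.66 and 3.61 TPM in spleen replicates 1, 2 and 3. Ccl6 had 312 and 322 TPM in tumor, against 2.26, 2.04 and 1.96 TPM in spleen. The spleen values of both genes were below the olfactory background, and Ccl6 averaged 316.9 ± 7.03 TPM in tumor (SD, n = 2). The log2 differences were 6.76 ± 0.22 for Ccl9 and 6.69 ± 0.21 for Ccl6 (SE; limma adjusted p = 9.51e-31 and 1.15e-31). The macrophage marker sum differed in the same libraries, and its part in both values was not tested.

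Ccl22, a ligand of Ccr4 that mature dendritic cells and macrophages release and that draws regulatory T cells, stayed at low levels. It was at 1.45 and 1.60 TPM in tumor replicates 2 and 3 and at 0.648, 0.391 and 0.558 TPM in spleen replicates 1, 2 and 3. The groups did not overlap, yet all 5 values lay far below the olfactory 95th percentile. The gene was called higher when no filter on low values was applied, with a log2 difference of 0.72 ± 0.18 (SE; limma adjusted p = 0.00318), where 27.0% of the 19685 genes then tested were called higher.

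Per transcript length, the tumor levels followed the same order in both libraries: Ccl2, Ccl7, Ccl12, Ccl4, Ccl9, Ccl6, Ccl3, Ccl5, Ccl8 and Ccl22. The ranges of Ccl2 and Ccl7 overlapped, as did those of Ccl4 and Ccl9, and the other neighbours in this order did not. In spleen Ccl5 ranked first in all 3 libraries, followed by Ccl9 and Ccl6 with overlapping ranges. The other 7 ligands stood at 1.29 TPM or less in every spleen library. The tumor libraries differed by gene: replicate 2 over replicate 3 was 1.43 for Ccl2, 1.40 for Ccl7, 1.47 for Ccl3, 1.17 for Ccl4, 1.15 for Ccl9 and 1.13 for Ccl12. The same ratio was 0.743 for Ccl5, 0.865 for Ccl8, 0.904 for Ccl22 and 0.969 for Ccl6, beside 0.946 for the macrophage marker sum and 1.27 for the T cell identity sum. With 2 tumor libraries these ratios are values without a test.

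The summed TPM of all 23 listed CC ligands was 4837 and 3817 TPM in tumor replicates 2 and 3, against 39.2, 39.8 and 37.6 TPM in spleen replicates 1, 2 and 3. This sum made up 0.811% and 0.670% of the listed TPM in tumor, against 0.0146%, 0.0111% and 0.0129% in spleen. A share within the pool does not depend on scaling between libraries. Ccl2, Ccl7 and Ccl12 together took 67.7% and 63.6% of the pool in tumor, and 2.12%, 2.55% and 1.19% in spleen. Ccl5 took 1.43% and 2.43% in tumor, and 27.1%, 38.2% and 29.7% in spleen. The tumor pool was led by the Ccr2 ligands and the spleen pool by Ccl5 and by low-level ligands outside the 10, which summed to 16.2 and 19.4 TPM in tumor and 20.4, 17.7 and 18.2 TPM in spleen. Only Ccl5 in spleen replicate 2 exceeded the olfactory 95th percentile among spleen values, so the spleen shares divide levels within or near background.

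**Figure D2:**
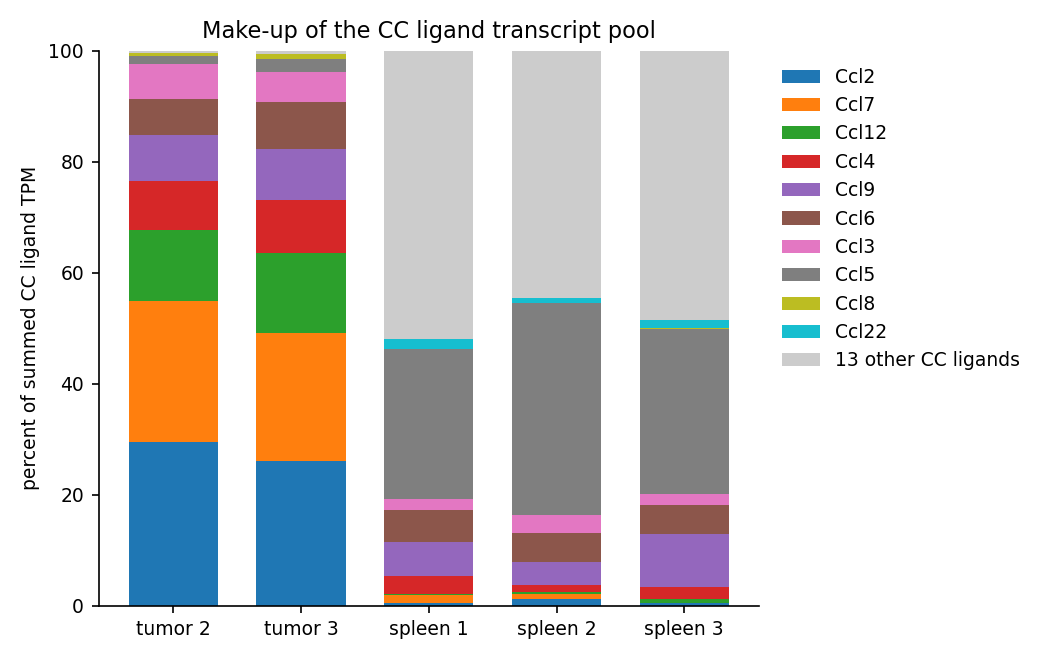
Share of each CC ligand in the summed TPM of all 23 listed CC ligands (percent), with 1 bar per library, tumor libraries left of spleen libraries. Ccl2, Ccl7 and Ccl12 fill 67.7% and 63.6% of the tumor bars, and Ccl5 fills 27.1% to 38.2% of the spleen bars. The spleen bars divide levels within or near the olfactory background.

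Set against marker sums of the same library, the ligands fell into different patterns. Per 100 TPM of the macrophage and monocyte sum, Ccl2 stood at 18.4 and 12.2 TPM in tumor replicates 2 and 3, and at 0.870, 1.62 and 0.626 TPM in spleen replicates 1, 2 and 3. Ccl7 and Ccl12 were likewise higher in both tumor libraries than in any spleen library on this ratio. Ccl6 was at 4.03 and 3.94 TPM in tumor and 8.88, 7.11 and 6.98 TPM in spleen, and Ccl9, at 5.20 and 4.28 TPM in tumor, also lay below its spleen values of 9.46, 5.81 and 12.9 TPM. For Ccl3 and Ccl4 the ranges overlapped between tissues. Ccl5 was at 0.892 and 1.14 TPM in tumor, against 41.7, 53.1 and 39.8 TPM in spleen. Ccl22 was likewise lower, at 0.0187 and 0.0196 TPM in tumor, against 2.54, 1.37 and 1.99 TPM in spleen. Ccl8 was higher, at 0.378 and 0.414 TPM in tumor, against 0, 0 and 0.227 TPM in spleen. Per 100 TPM of the T cell identity sum all 10 ligands were higher in tumor. This had to follow, as each ligand was higher and the T cell sum lower in both tumor libraries. On this ratio Ccl5 was at 21.96 and 37.6 TPM in tumor, against 1.12, 1.22 and 1.07 TPM in spleen. These ratios are descriptions without a test, and the spleen macrophage sum consists of values near background.

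**Figure D3:**
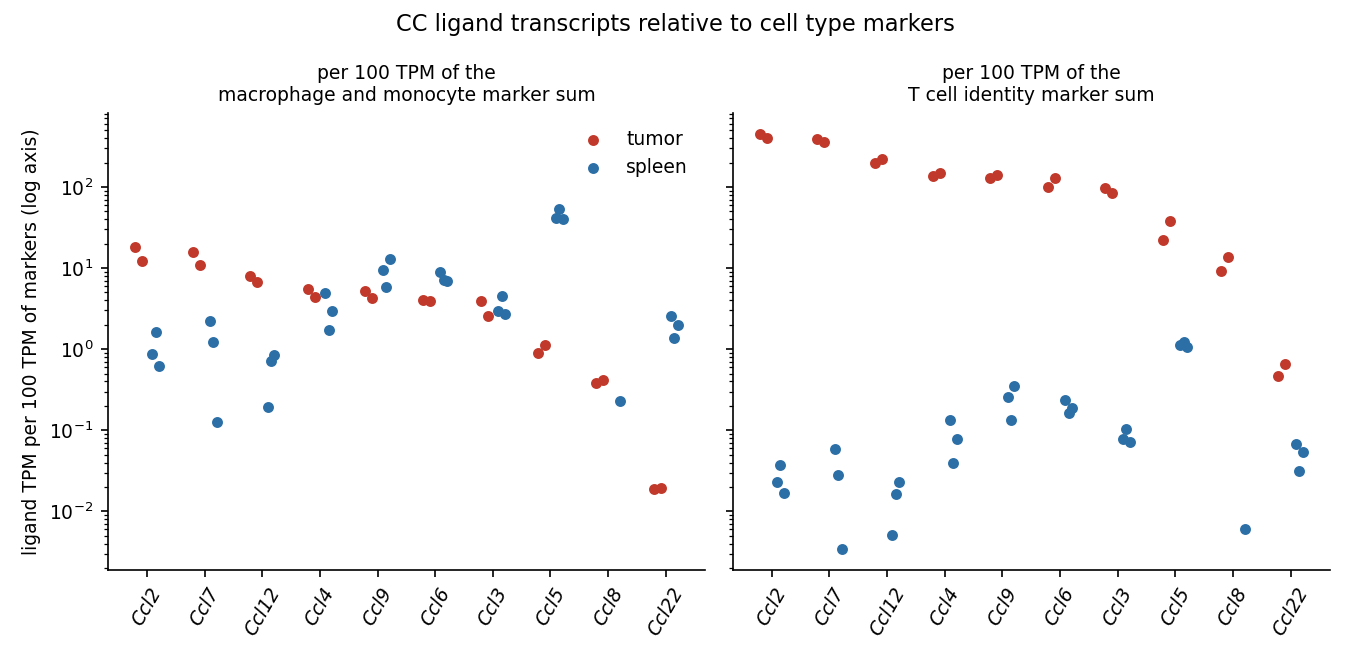
TPM of each ligand per 100 TPM of the macrophage and monocyte marker sum (left) and of the T cell identity marker sum (right), on a log axis, with 1 point per library, tumor red and spleen blue; the 2 spleen libraries that list Ccl8 at 0 are not drawn. On the left Ccl2, Ccl7, Ccl12 and Ccl8 are higher in both tumor libraries than in any spleen library, Ccl5, Ccl6, Ccl9 and Ccl22 are lower and Ccl3 and Ccl4 overlap. On the right tumor points lie above spleen points for all ligands, which the higher ligand levels and lower T cell sum in tumor require.

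Of the 10 ligands 9 lie on chromosome 11 in a pair of clusters (GENCODE M21, GRCm38). The first spans Ccl2 to Ccl8, 11:82035571-82116799, and the second Ccl5 to Ccl4, 11:83525778-83664683, with 1.41 Mb between them. Ccl22 lies on chromosome 8 at 94745590 to 94751699, near Ccl17. Within the first cluster the level changed sharply from gene to gene. Ccl11, the eosinophil attractant eotaxin, sits between Ccl7 and Ccl12 and stood at 0.767 and 0.959 TPM in tumor replicates 2 and 3 and at 1.10, 0.786 and 0.878 TPM in spleen replicates 1, 2 and 3. Its tissue ranges overlapped, and without a filter its log2 difference was -0.04 (95% interval -0.42 to 0.34; limma adjusted p = 0.872). Ccl1, the other Ccr8 ligand at the far side of Ccl8, was at 0.183 and 0.647 TPM in tumor and 1.79, 0.445 and 0.685 TPM in spleen. Of 25 listed genes within 500 kb of the chromosome 11 ligands that are not ligands themselves, 15 were tested, 8 rose and 0 fell as deposited. Over all 12979 tested genes 40.9% were called higher and 18.1% lower, and whether the region differs from this was not tested. The largest rises among them were those of Slfn4, a Schlafen gene between the clusters, at 2283 ± 247 TPM in tumor and 0.741 ± 0.228 TPM in spleen, and of Wfdc17, a gene of the WAP protein family beside Ccl4, at 128 ± 1.28 TPM in tumor and 0.566 ± 0.149 TPM in spleen (SD, n = 2 and n = 3). Slfn4 and Wfdc17, like Heatr9 and Dusp14 among the 8, had spleen means below 1 TPM and entered the test through their tumor values. Their tumor means therefore had to be the higher. The annotation places Gm17268 over Ccl2 and E230016K23Rik over Ccl6 on the opposite strand. The kit keeps strand, but no source used here says whether quantification used it, so reads of these pairs may be mixed.

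**Figure D4:**
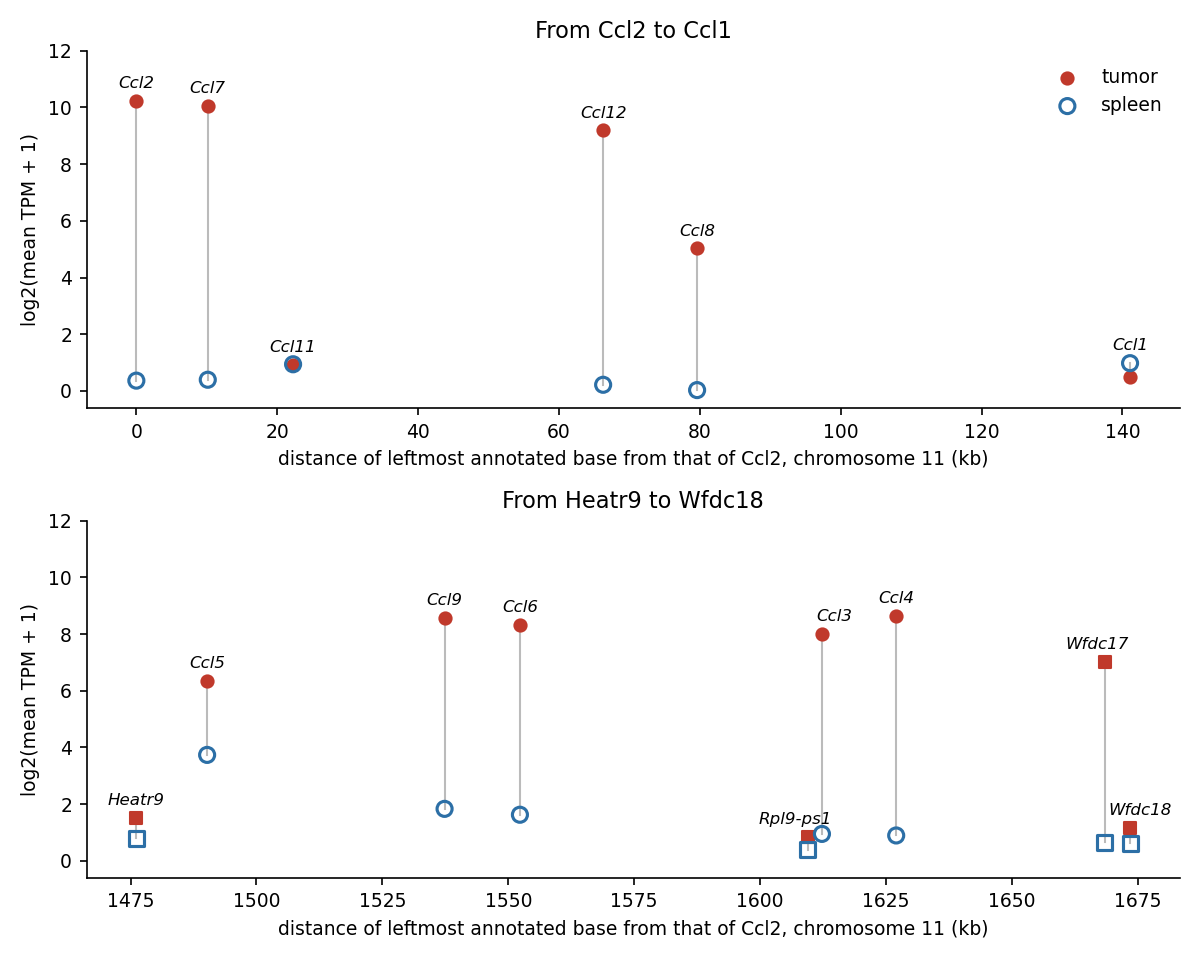
Mean level, log2(mean TPM + 1), in tumor (red, filled) and spleen (blue, open) of listed genes in the 2 chromosome 11 clusters, by distance in kb from Ccl2; circles are CC ligands and squares other genes. Ccl11 and Ccl1 lie near the base line in both tissues while Ccl2, Ccl7, Ccl12 and Ccl8 rise around them, and in the second cluster Wfdc17 stands with the ligands.

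Promoter sequences from RefSeq (GRCm38.p6) were matched by symbol for 6 of the 10 ligands, Ccl3, Ccl6, Ccl8, Ccl9, Ccl12 and Ccl22. They are shown for Ccl12 and Ccl8, adjacent genes that rose to different levels, for Ccl9, the ligand with the most motif matches, and for Ccl1, the neighbour of Ccl8 that stayed low. Each is the 250 bases before the annotated start, 5′ to 3′ on the gene's strand, at chr11:82101595-82101844 (plus strand) for Ccl12, chr11:82114935-82115184 (plus strand) for Ccl8, chr11:83578637-83578886 (minus strand) for Ccl9 and chr11:82179813-82180062 (minus strand) for Ccl1. Capitals mark matches on either strand to the kappaB motif by its usual degenerate form, the AP-1 motif TGANTCA and the TATA motif TATAAA.
Ccl12: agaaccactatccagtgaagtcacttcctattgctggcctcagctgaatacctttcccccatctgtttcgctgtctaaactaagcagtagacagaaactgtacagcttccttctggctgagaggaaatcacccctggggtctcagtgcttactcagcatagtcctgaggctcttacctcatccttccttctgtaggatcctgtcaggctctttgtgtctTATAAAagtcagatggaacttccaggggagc
Ccl8: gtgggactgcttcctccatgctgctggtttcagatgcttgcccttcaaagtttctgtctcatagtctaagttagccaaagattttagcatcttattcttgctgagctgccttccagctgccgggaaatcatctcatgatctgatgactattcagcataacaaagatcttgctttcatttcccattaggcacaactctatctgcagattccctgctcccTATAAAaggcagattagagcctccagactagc
Ccl9: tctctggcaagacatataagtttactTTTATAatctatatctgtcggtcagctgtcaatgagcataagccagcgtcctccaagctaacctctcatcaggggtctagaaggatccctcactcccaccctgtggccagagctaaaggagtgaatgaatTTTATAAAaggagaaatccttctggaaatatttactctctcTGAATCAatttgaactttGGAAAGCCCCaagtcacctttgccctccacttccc
Ccl1: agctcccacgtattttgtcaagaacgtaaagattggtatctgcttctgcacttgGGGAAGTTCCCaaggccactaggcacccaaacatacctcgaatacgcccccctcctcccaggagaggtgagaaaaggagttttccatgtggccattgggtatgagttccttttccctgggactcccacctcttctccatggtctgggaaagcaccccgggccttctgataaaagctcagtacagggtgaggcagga

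A TATAAA match ended 26 bases before the start in Ccl12 and 27 bases before it in Ccl8. Ccl9 held a kappaB match at -35 to -26, an AP-1 match at -53 to -47, where the motif with its free middle base matches both strands, and TATAAA matches further upstream, a pair of which overlap. In Ccl1 a pair of overlapping kappaB matches lay between -196 and -186. Among the 6 ligand windows the kappaB motif was found in 1, AP-1 in 1 and TATAAA in 3. Of all 32851 windows of 250 bases, 7.25% held a kappaB, 6.75% an AP-1 and 12.4% a TATAAA match. Among 16 windows of 10 other CC ligand genes, each of the 3 motifs was found in 2 windows. The TATAAA motif was chosen after the sequences were read, so its count cannot serve as a test. The Ccl12 and Ccl8 windows shared 58.8% of positions in a global alignment, the highest of the 21 pairs among these 6 ligands and Ccl1, and the other pairs shared 47.2% to 55.2%. A match describes the letters of the window and not a site in use.

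No other CC ligand was called in either direction as deposited, while 3 were called lower with equal totals and 6 higher under T cell identity scaling. Of the 13 others listed, 5 were tested and 8 had a mean below 1 TPM, and none exceeded the olfactory 95th percentile in any library. The highest was Ccl25, the gut and thymus chemokine, at 6.91 and 8.40 TPM in tumor replicates 2 and 3 and 4.37, 7.52 and 5.44 TPM in spleen replicates 1, 2 and 3. Its log2 difference was 0.37 (95% interval -0.06 to 0.81; limma adjusted p = 0.13). The intervals of Ccl19, Ccl24 and Ccl28 likewise spanned 0, while that of Ccl27a ran from -0.97 to -0.03 with an adjusted p of 0.0626 in limma. At an unadjusted p below 0.05 Ccl27a was the single one of the 5. The Ccl21 and Ccl27 genes have near-identical copies, so their values are uncertain. Ccl26, an eotaxin relative, was listed at 0 in both tumor libraries and at 1.83, 0.156 and 1.45 TPM in spleen, and was called lower when no filter was applied (log2 difference -1.001, limma adjusted p = 0.00544).

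Among 9 CC receptors 3 rose, 3 fell, 1 was not called and 2 were not tested. The shares over all tested genes were 40.9% higher and 18.1% lower. With equal totals, and also on the upper quartile, 4 receptors were called lower. Scaled on T cell identity genes 7 were higher and 0 lower. Ccr1, the receptor of Ccl3, Ccl5, Ccl6, Ccl7 and Ccl9, was at 284 and 256 TPM in tumor replicates 2 and 3, against 0.225, 0.535 and 0.351 TPM in spleen replicates 1, 2 and 3. Ccr2 was at 344 and 353 TPM in tumor, against 9.50, 19.2 and 15.9 TPM in spleen. No tumor value of Ccr1 or Ccr2 overlapped a spleen value, and their log2 differences were 7.63 ± 0.21 and 4.51 ± 0.22 (SE; limma adjusted p = 8.58e-34 and 3.18e-23). Ccr1, with a spleen mean of 0.370 TPM, entered the test through its tumor values. Ccr8, the receptor of mouse Ccl8 and Ccl1, rose to 17.4 and 12.8 TPM in tumor, against 1.73, 2.60 and 2.17 TPM in spleen (log2 difference 2.34 ± 0.21, limma adjusted p = 1.14e-13).

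Ccr4, the receptor of Ccl22 on helper and regulatory T cells, fell, with 2.98 and 4.24 TPM in tumor replicates 2 and 3 and 8.90, 9.28 and 9.85 TPM in spleen replicates 1, 2 and 3 (log2 difference -1.18 ± 0.21, limma adjusted p = 3.2e-06). Ccr7, the lymph node homing receptor, and Ccr6, a receptor of Th17 cells, fell with log2 differences of -1.37 and -1.17 (limma adjusted p = 2.11e-07 and 3.89e-06). Ccr4 and Ccr6 lay below the olfactory 95th percentile in every library. Scaled on T cell identity genes these 3 differences turned positive, at 0.58 for Ccr4, 0.45 for Ccr6 and 0.61 for Ccr7. Ccr3, a receptor of Ccl7, was not tested and stood at 1.33 and 0.756 TPM in tumor and 0.430, 0.756 and 0.619 TPM in spleen. Among 5 atypical or receptor-like genes Ccrl2, a chemerin-binding receptor of myeloid cells, was the one tested and rose to 232 ± 35.3 TPM in tumor (SD, n = 2), against 0.835 ± 0.0396 TPM in spleen (SD, n = 3). Ccrl2 entered the test through its tumor values.

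**Figure D5:**
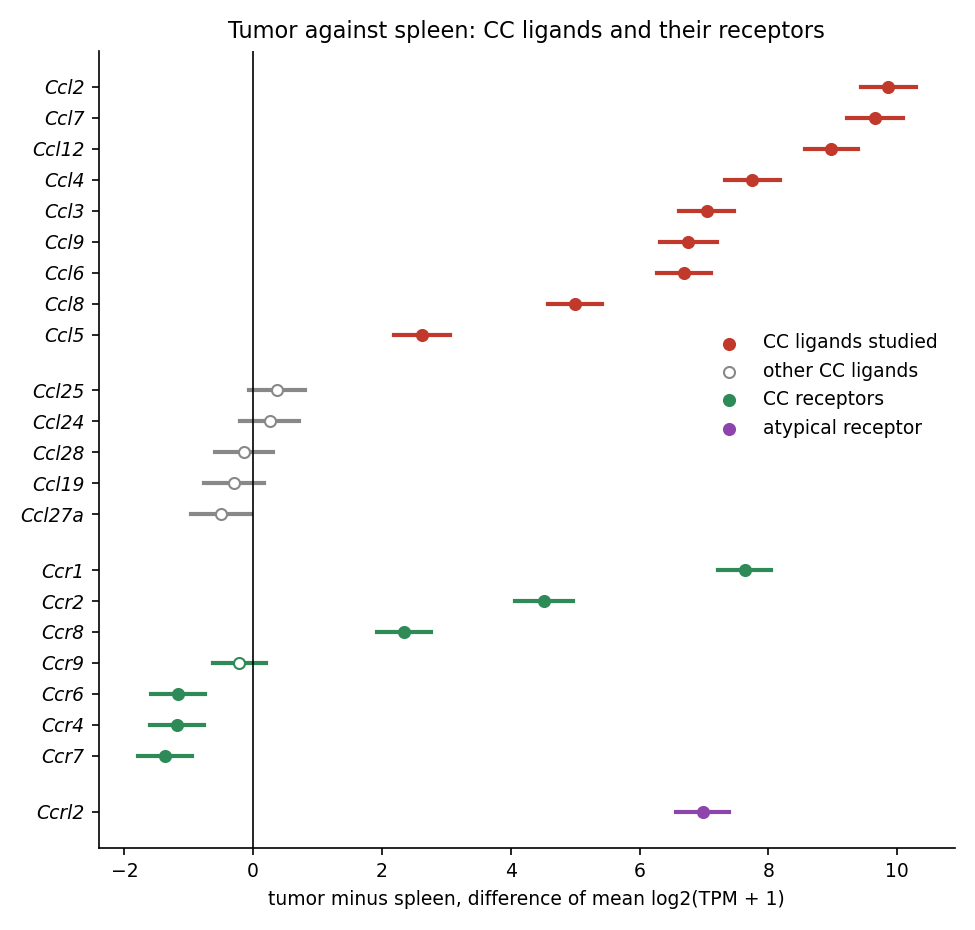
Difference of mean log2(TPM + 1), tumor minus spleen, with 95% intervals from limma for the tested CC ligands and receptors; filled points were called at an adjusted p below 0.05 and open points were not. The 9 ligands lie between 2.62 and 9.86, the 5 other ligands around 0, and the receptors on both sides of 0.

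Of 42 listed genes of inducing cytokines, transcription factors, mRNA decay and receptor signalling 39 were tested, and 32 rose and 3 fell as deposited. With equal totals 23 were called higher and 8 lower, and on T cell identity genes 38 higher and 0 lower. The counts by list below are as deposited. Among all tested genes 40.9% were called higher and 18.1% lower. Among cytokines known to induce CC ligands 5 rose, with Il1b, which encodes interleukin-1 beta, at 2926 ± 536 TPM in tumor and 0.636 ± 0.402 TPM in spleen, Il1a at 41.4 ± 8.02 and 0.560 ± 0.161 TPM, and Tnf at 152 ± 4.32 and 5.50 ± 0.762 TPM in the same order (SD, n = 2 and n = 3). Il1b and Il1a entered the test through their tumor values. Ifng and Il4, cytokines of helper T cells, fell, with log2 differences of -1.08 and -0.97 (limma adjusted p = 8.71e-05 and 0.000202). The call of Ifng rests on values of 2.89 and 0.831 TPM in tumor and 4.31 to 4.84 TPM in spleen, all within background. That of Il4 rests on 0.506 and 0.857 TPM in tumor and 1.88, 2.43 and 2.54 TPM in spleen, likewise within background. Of 16 transcription factor and NF-kappaB pathway genes 14 rose, led by Fos, an AP-1 subunit, at 7.23, Irf7 at 5.53 and Irf5 at 5.50 on the log2 scale, and Irf3 fell by 0.52 (limma adjusted p = 0.0332). All 5 mRNA decay and stability genes rose, among them Zfp36, whose protein binds AU-rich elements of cytokine and chemokine mRNAs, by 4.55, Zc3h12a, a ribonuclease gene, by 3.14, and Zfp36l2 by 1.86. Of 11 listed genes of receptor signalling 8 rose and none fell as deposited, with Rgs1 and Rgs2, which shut off G protein signals, at 6.69 and 5.07 and the arrestin gene Arrb2 at 1.70 on the log2 scale. The macrophage marker sum differed in the same libraries, and its part in these counts was not tested.

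The genes whose levels were nearest to those of the 3 most abundant ligands over the 5 libraries were taken by Euclidean distance in log2(TPM + 1), as a description. Thbs1, the thrombospondin 1 gene, and Cxcl2, a neutrophil attractant of the CXC family, were nearest to Ccl2, at distances of 0.98 and 1.11. The same genes were nearest to Ccl7, at 1.06 for Thbs1 and 0.92 for Cxcl2. Atf3, a stress-induced transcription factor gene, and Fcgr1, an Fc receptor gene of the macrophage list, were nearest to Ccl12, at 0.48 and 0.68. Cxcl2 shared with Ccl2 and Ccl7 the higher value in tumor replicate 2, at 909 and 606 TPM in tumor replicates 2 and 3, against 0.523, 0.301 and 0.569 TPM in spleen replicates 1, 2 and 3.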

How the data were processed

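Per the labels' protocols, RNA was depleted of ribosomal RNA, made into stranded libraries and read in pairs of 75 bp. The authors deposited 1 table per library with a value per gene symbol, taken as TPM from the values, which are not whole. The values sum to 596116 and 569309 TPM in tumor replicates 2 and 3. In spleen replicates 1, 2 and 3 they sum to 268987, 359532 and 292344 TPM. Each tumor total was above every spleen total, and differences as deposited carry this offset. Kallisto, DESeq2 and mm10 are named in the submitters' processing notes, without versions or roles. TPM keep no depth, so no counting interval is given, and a rise of abundant transcripts lowers the TPM of all others. TPM as deposited were analysed as log2(TPM + 1) in the 12979 genes averaging 1 TPM or more. The model in limma 3.58.1 (R 4.3.3) held tissue alone, with a trend of variance on level, and p-values were two-sided with Benjamini-Hochberg adjustment. Residual degrees of freedom were 3 and prior degrees of freedom 44.1, so most of each gene's error is borrowed from genes of like level. The test was checked on simulated data with independent normal noise, no filter on low values and no offset between tissues. That check does not cover differing totals, mixed cells or noise shared between libraries. Of 19726 symbols 19703 matched GENCODE M21.

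The ligands and gene lists were chosen with earlier results of these data known. A gene of the receptor list is not reported here. Named genes are all 10 ligands, called genes among the other CC ligands, the receptors Ccr1 to Ccr4, up to 3 called genes per direction of each further list with the largest change, up to 2 neighbours per direction, and the 2 genes nearest in level to each of the 3 highest ligands. Ccr8, Ccl1, Ccl11, Ccl25, Ccl26 and Ccl27a were named after their values were seen, the TATAAA motif was chosen after the sequences were read, and marker lists other than those of T cells and macrophages are given mostly as sums. Alternatives were 4 other scalings, pseudocounts of 0.1 and 10, no filter or a minimum mean of 5 TPM, a threshold of 0.01, limma without trend, a replicate block and each library left out.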

Additional observations from a re-analysis of the deposited data

How the results depend on the processing

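Of the 16 alternatives, every one that kept both tumor libraries called each of the 9 tested ligands higher. Their differences were also positive with a lone tumor library. Ccl22 was called higher in the 4 alternatives in which it was tested. Except with no filter, it entered through its tumor values, being at 0.648 TPM or less in every spleen library. Its tumor mean therefore had to be the higher in those alternatives. With the filter of 1 TPM on all 5 libraries as deposited, 6 of the 9 passed through their tumor values, so calls repeated under it had to follow. With a minimum mean of 5 TPM this also held for Ccl6 and Ccl9, at spleen means of 2.09 and 2.56 TPM. The number was not counted for rescaled values or with a library left out. Over the 16 alternatives the log2 difference of Ccl2 ranged from 6.87 to 11.7 and that of Ccl8 from 2.05 to 8.07. Both were lowest with a pseudocount of 10 and highest with 0.1. Genes called higher and lower numbered 2697 and 6789 with equal totals, 3478 and 5545 under upper quartile scaling, and 12754 and 130 on T cell identity genes. Lower genes numbered 1456 with a minimum mean of 5 TPM and 1552 at a threshold of 0.01. With 1 library left out, 4311 to 5894 genes were higher and 1225 to 2609 lower, the fewest lower without tumor replicate 2. A lone tumor library was assumed to vary like the spleen libraries.

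Other CC ligands called lower numbered 3 with equal totals, 1 each by median ratios, upper quartile and no filter, and 0 to 1 with 1 library left out. Those called higher numbered 6 on T cell identity genes and 0 to 1 with 1 library left out. On T cell identity genes 7 receptors were higher and 0 lower. Upstream and downstream genes called lower numbered 8 with equal totals, 6 on the upper quartile, 0 on T cell identity genes, 1 with a minimum mean of 5 TPM and 1 to 3 with 1 library left out. Under equal totals and under upper quartile scaling the direction changed for Ccl24 (-0.25 and -0.10) and Ccl25 (-0.43 and -0.18). On T cell identity genes it changed for Ccl19 (0.98), Ccl27a (1.07), Ccl28 (1.25), Ccr4 (0.58), Ccr6 (0.45), Ccr7 (0.61) and Ccr9 (1.57). With 1 library left out it changed for Ccl19 (-0.70 without tumor replicate 3 to 0.10 without tumor replicate 2), Ccl28 (-0.37 to 0.072, the same libraries) and Ccl27a (-1.02 without tumor replicate 2, called lower, to 0.023 without tumor replicate 3). In a pool of the 10 ligands alone the spleen shares were 61.0% for Ccl5, 13.005% for Ccl9, 10.5% for Ccl6, 4.57% for Ccl3, 4.398% for Ccl4, 2.70% for Ccl22, 1.58% for Ccl7, 1.39% for Ccl2 and 0.801% for Ccl12. The cause of these shifts was not tested.

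Replicate numbers 2 and 3 occur in both tissues with no statement that they pair samples. The difference between replicates 2 and 3 correlated at r = 0.173 across genes between tissues, over 2 pairs. With the replicate block, in which spleen replicate 1 has no partner and adds nothing to the difference, 4877 genes were higher and 2013 lower, all 9 tested ligands stayed called, and Ccl5 had a log2 difference of 2.53. Levels within the olfactory background, Ccl22 and most spleen values among them, are limited by precision.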
